A study of Bos grunniens x Bos taurus and Bos grunniens with 6 samples.

Results

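The acrosome formation genes described here are 10 genes, *ACR*, *ACRBP*, *SPACA1*, *SPACA3*, *SPACA4*, *ZPBP*, *ZPBP2*, *DPY19L2*, *PICK1* and *GOPC*, which were taken by symbol, ignoring case, from a table of 18918 genes of the testis transcriptome. Every symbol was found, each on 1 gene, so that no symbol was absent and no gene shared its symbol with a copy. RNA-seq libraries were made from the testis tissue of 3 cattle-yak, named C1 to C3 here, and 3 yak, Y1 to Y3, 1 library per animal and none pooled. The cattle-yak were F1 males of Jersey cattle sires and Gannan yak dams, the yak were Gannan males, and every animal was 4 years old. Cattle-yak and yak were sampled in separate counties. The labels give castration for every animal, whereas by the methods the yak were euthanized first, and neither condition can be told apart from the cross. F1 cattle-yak males are sterile, and the comparison of the groups addresses at which step their spermatogenesis stops.

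The acrosome is a cap-shaped secretory vesicle over the sperm nucleus, and its enzymes and binding proteins let the sperm pass the coat of the egg. It is built in round spermatids, after meiosis, from Golgi vesicles that fuse, attach to the nuclear envelope and spread over it, while many of its proteins are already transcribed in late spermatocytes. Sperm that lack the acrosome are round-headed, a defect known as globozoospermia, and loss of *DPY19L2*, *SPACA1*, *PICK1* or *GOPC* is known to cause it in mammals.

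The values are FPKM, the fragments of a gene divided by the length of its model and by the fragments of the library, which the authors obtained by mapping cattle-yak and yak reads alike to the yak genome. No further scaling had been applied. Whole fragments were recovered from the steps of the values. The library depth that fits them, estimated so that gene lengths come out whole, was 11175100 to 11834987 fragments in cattle-yak and 12991641 to 13136129 in yak. The 15042 genes with a mean of 0.5 FPKM or more were compared on log2 (FPKM + 1) with a two-sided limma test. A gene was called when its Benjamini-Hochberg adjusted p over all of these was under 0.05 and its log2 (foldchange) beyond 1. In this fit 20.8% of the genes tested were called lower in cattle-yak and 33.4% higher, and the median log2 (foldchange) of all genes tested was 0.51. These shares are 3136 lower and 5023 higher genes, which became 4173 and 2655 with median-of-ratios size factors. As defining markers of the tissue, 12 Sertoli cell genes had summed levels of 1331 to 1586 FPKM in cattle-yak and 218 to 289 FPKM in yak, and 8 genes of elongating spermatids 22.0 to 101.8 FPKM in cattle-yak and 10062 to 12285 FPKM in yak. No gene of these lists was at 0 in all animals of a group. The part of this difference in cell makeup in the results was not tested, and in whole tissue fewer cells of a type and less RNA per cell cannot be told apart.

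Of the 10 acrosome genes, all were tested, 9 were called lower in cattle-yak, beside 20.8% of all genes tested, and none higher. The exception was *GOPC*. The median log2 (foldchange) of the 10 genes was −4.32. In the 9 lower genes every cattle-yak value lay below every yak value, as in 30.2% of all genes tested. Together the 10 genes had 86.6 to 151 FPKM in a cattle-yak library and 1261 to 1340 FPKM in a yak library. As a share of all FPKM this was 0.0199% ± 0.0056 (SD, n = 3 cattle-yak), against 0.215% ± 0.0078 (SD, n = 3 yak). The mean level of the 9 lower genes in cattle-yak ranged from 28.3% of the yak level for *PICK1* down to 0.68% for *SPACA4* and 0.15% for *SPACA3*. The genes are described below by the place of each protein in the organelle.

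**Figure D1:**
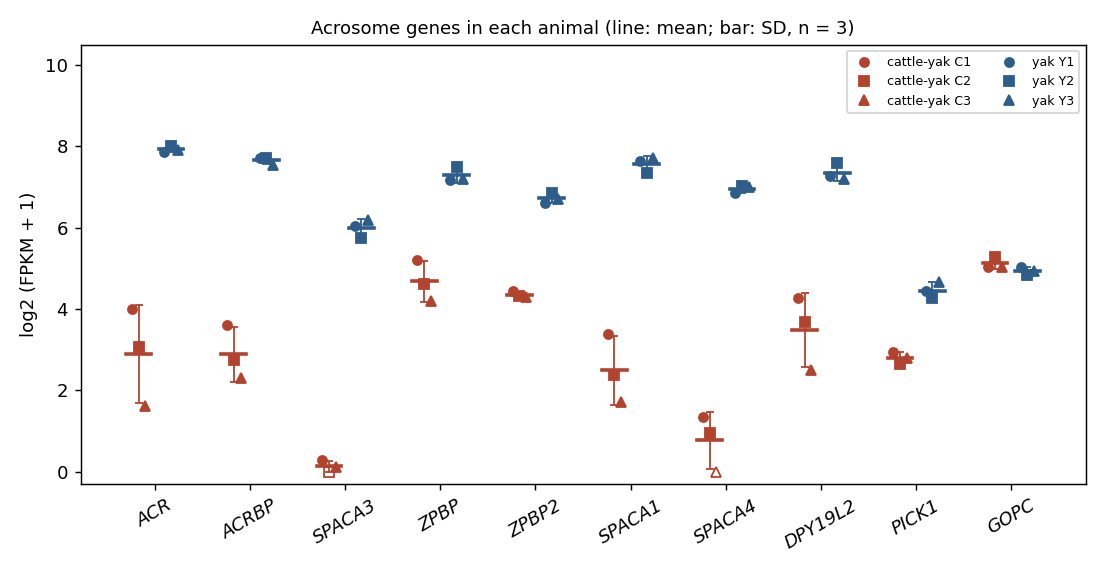
Level of the 10 acrosome genes in each animal, as log2 (FPKM + 1) on the vertical axis. Red points are the cattle-yak C1 to C3 and blue points the yak Y1 to Y3, the short line is the mean, the bar the SD (n = 3), and an open point is a value of 0; the groups are apart for every gene but close together for GOPC, at 31.8 to 37.9 FPKM against 27.3 to 31.5 FPKM.

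*ACR* (ENSBGRG00000006015) encodes acrosin, the serine protease stored in the acrosome as proacrosin. C1, C2 and C3 had 14.9, 7.42 and 2.05 FPKM, and Y1, Y2 and Y3 had 232.9, 258.3 and 240.3 FPKM. All yak animals stood close together and far above the cattle-yak, among which C1 was highest and C3 lowest. The cattle-yak mean of 8.12 ± 6.45 FPKM (SD, n = 3) was 3.33% of the yak mean of 243.8 ± 13.1 FPKM (SD, n = 3). The log2 (foldchange) was −5.04 ± 0.50 (standard error), at an adjusted p = 2.6e-05 (limma). Behind these values stood 200, 94 and 27 cattle-yak fragments, in the same order, and 3469 to 3839 in each yak.

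*ACRBP* (ENSBGRG00000000596) encodes the proacrosin-binding protein, which packs proacrosin into the granule. It had 11.2, 5.66 and 3.92 FPKM in C1, C2 and C3, and 209.8, 208.6 and 185.5 FPKM in Y1, Y2 and Y3. The order of the cattle-yak animals was that of *ACR*, and the lowest yak value was 16.6 times the highest cattle-yak value. The log2 (foldchange) was −4.78 ± 0.29 (standard error), at an adjusted p = 1.8e-06 (limma). The means of the protease and of its binding protein thus stood at 3.33% and 3.44% of the yak level.

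*SPACA3* (ENSBGRG00000019895) encodes a lysozyme-like protein of the acrosome. C1 had 0.216 FPKM, C2 had 0 and C3 had 0.0735, and Y1, Y2 and Y3 had 64.6, 52.3 and 72.1 FPKM. The cattle-yak values stood for 3, 0 and 1 fragments and the yak values for 996, 804 and 1098, so the transcript was barely detectable in cattle-yak at this depth. Over the animals of a group the level per depth was 639 times higher in yak, with a 95% exact interval of 249 to 2347 that covers counting error only. The log2 (foldchange) of −5.86 (adjusted p = 8.6e-08 from limma) is set in size by the pseudocount and was −8.47 with a pseudocount of 0.1.

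*ZPBP* (ENSBGRG00000021319) and *ZPBP2* (ENSBGRG00000021284) encode related zona pellucida binding proteins of the acrosomal matrix, and after *GOPC* and *PICK1* they kept the highest share of the yak level. *ZPBP* had 35.9, 23.6 and 17.4 FPKM in C1, C2 and C3, and 142.1, 178.7 and 145.9 FPKM in Y1, Y2 and Y3. *ZPBP2* had 20.7, 18.8 and 18.6 FPKM in C1, C2 and C3, and 95.99, 114.6 and 103.8 FPKM in Y1, Y2 and Y3. *ZPBP* was again highest in C1 and lowest in C3, whereas the values of *ZPBP2* lay within 1.11 times of each other in cattle-yak. The means in cattle-yak were 16.5% and 18.5% of those in yak. The log2 (foldchange) was −2.61 for *ZPBP* (standard error 0.23, adjusted p = 1.5e-05) and −2.38 for *ZPBP2* (standard error 0.10, adjusted p = 4.2e-07), both from limma.

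Of the membrane proteins, *SPACA1* (ENSBGRG00000022908) lies in the inner acrosomal membrane and is needed for the shape of the acrosome. It had 9.51, 4.21 and 2.26 FPKM in C1, C2 and C3, and 197.1, 162.5 and 209.8 FPKM in Y1, Y2 and Y3. The groups were far apart, with 2.81% of the yak level left in cattle-yak, and C1 was again the highest cattle-yak animal. The log2 (foldchange) was −5.07 ± 0.37 (standard error), at an adjusted p = 4.6e-06 (limma). *SPACA4* (ENSBGRG00000021057) encodes a small lipid-anchored protein of the acrosomal membrane. It had 1.55, 0.94 and 0 FPKM in C1, C2 and C3, from 7, 4 and 0 fragments, and 113.5, 128.4 and 127.3 FPKM in Y1, Y2 and Y3, from 568 to 641 fragments. A single cattle-yak animal thus had no fragment at all, while the lowest yak value was 73.1 times the highest cattle-yak value. Per depth the yak level was 147 times higher, with a 95% exact interval of 82.2 to 296 for counting error only. Its log2 (foldchange) of −6.18 (adjusted p = 6.9e-07 from limma) was the largest fall of the 10 genes on this scale, where *SPACA3* had the lower share of the yak level.

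*DPY19L2* (ENSBGRG00000007950) encodes a protein of the inner nuclear membrane that holds the acrosome to the nucleus. It had 18.4, 11.8 and 4.62 FPKM in C1, C2 and C3, and 153.3, 191.5 and 145.3 FPKM in Y1, Y2 and Y3. C1 had 3.98 times the level of C3, and even C1 reached only 11.3% of the yak mean. The log2 (foldchange) was −3.87 ± 0.39 (standard error), at an adjusted p = 2.9e-05 (limma). This gene was the most deeply covered of the 9 lower genes in yak, with 4580 to 6092 fragments, and had 130 to 528 in cattle-yak.

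The remaining genes act in Golgi traffic and are not confined to germ cells. *PICK1* (ENSBGRG00000002191), a protein with a PDZ and a BAR domain that takes part in vesicle traffic from the Golgi, had 6.62, 5.28 and 5.94 FPKM in C1, C2 and C3. In Y1, Y2 and Y3 it had 20.6, 18.2 and 24.3 FPKM. The lowest yak value was 2.76 times the highest cattle-yak value, and C1 and C3 differed by 1.11 times. Its log2 (foldchange) of −1.66 ± 0.15 (standard error) at an adjusted p = 1.3e-05 (limma) was the smallest fall of the 9.

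*GOPC* (ENSBGRG00000007399) encodes a PDZ protein of the Golgi with a coiled coil, which is needed for the fusion of the first acrosomal vesicles. C1, C2 and C3 had 32.0, 37.9 and 31.8 FPKM, and Y1, Y2 and Y3 had 31.5, 27.3 and 29.4 FPKM. The cattle-yak values lay just above the yak values without overlap, an order found in 53.9% of all genes tested. The log2 (foldchange) of 0.20 had a 95% interval of −0.06 to 0.46 and did not pass the test (adjusted p = 0.139 from limma), although the fragments behind it, 947 to 1121 per animal, were among the highest in cattle-yak. The sign of *GOPC* depended on the scaling, at −0.40 with median-of-ratios size factors, −2.03 with the libraries centred on Sertoli markers and 0.82 when centred on spermatocyte markers. Both centrings move the log2 (foldchange) of every gene by the same amount, so that a call means a change relative to those markers. With Sertoli markers 73.7% of all genes were called lower, so such a call does not set single genes apart. The other 9 genes were also called lower with median-of-ratios size factors, beside 27.7% of all genes, and with centring on spermatocyte markers, beside 14.2%.

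**Figure D2:**
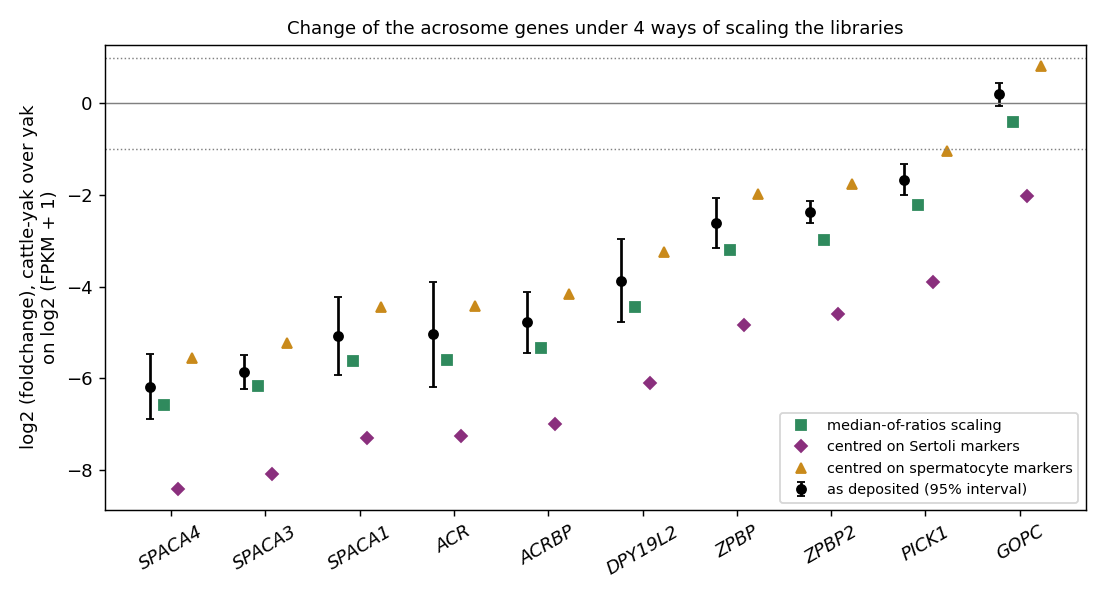
Log2 (foldchange) of cattle-yak over yak for each acrosome gene, on log2 (FPKM + 1), with the 95% interval for the values as deposited and the estimates under 3 other scalings of the libraries. Dotted lines mark a log2 (foldchange) of 1 in either direction; 9 genes stay below the lower line under each scaling, PICK1 at −1.03 nearest to it, while GOPC changes sign.

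In yak, the levels of the acrosome genes per length of the gene model ran from *ACR* with 243.8 FPKM through *ACRBP*, *SPACA1*, *DPY19L2*, *ZPBP*, *SPACA4*, *ZPBP2*, *SPACA3* and *GOPC* to *PICK1* with 21.0 FPKM. The ranges of the animals did not overlap between *ACR* and *ACRBP*, between *ZPBP* and *SPACA4*, between *ZPBP2* and *SPACA3*, between *SPACA3* and *GOPC* and between *GOPC* and *PICK1*, and the other neighbours did overlap. The 7 genes from *ACR* to *ZPBP2* stood at the 93.6 to 97.9 percentile of the mean FPKM over all genes in yak. In cattle-yak the order began with *GOPC*, *ZPBP* and *ZPBP2*, at 33.9, 25.6 and 19.3 FPKM, and ended with *SPACA1*, *SPACA4* and *SPACA3*, at 5.33, 0.83 and 0.097 FPKM. *ACR* stood at the 52.9 percentile in cattle-yak, *SPACA4* at the 27.5 and *SPACA3* at the 13.3 percentile. The length of the gene model, recovered with the fragments, was a multiple of 3 for 7 of the 10 genes and for 52.9% of all genes, so models with and without untranslated parts may be mixed in this order.

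The coefficient of variation among the animals was larger in cattle-yak than in yak for all of these genes but *ZPBP2* and *PICK1*. For *SPACA3* and *SPACA4*, with 4 and 11 cattle-yak fragments in all, counting error enters this spread, and its part was not tested. The coefficient was 79.4% in cattle-yak and 5.37% in yak for *ACR*, 70.5% and 12.9% for *SPACA1*, and 59.4% and 15.1% for *DPY19L2*. For *ZPBP2*, *PICK1* and *GOPC* it was 5.99%, 11.3% and 10.3% in cattle-yak, against 8.91%, 14.6% and 7.13% in yak. C1 had the highest cattle-yak value in 9 of the 10 genes and C3 the lowest in 8, and the full order C1, C2, C3 was found in 7 genes. Among all genes called lower, C1 was highest in 66.1% and C3 lowest in 59.2%, and 45.4% had the full order. The 9 round spermatid markers in the table summed to 28.0 FPKM in C1, 11.0 in C2 and 5.64 in C3, the same order. The 12 spermatocyte markers summed to 543 in C1, 320 in C2 and 459 in C3, another order. By gene, the full order was found in 6 of the 9 round spermatid markers. It was also found in 3 of the 12 spermatocyte markers, *PIWIL1*, *TDRD9* and *HSPA2*. The part of both marker lists in the difference between the cattle-yak animals was not tested.

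**Figure D3:**
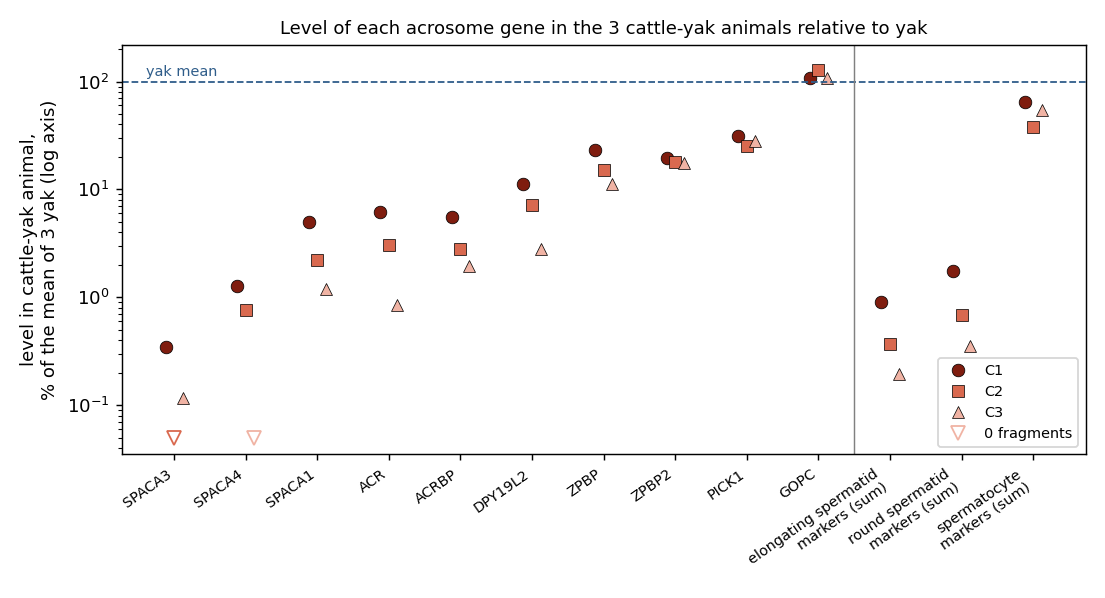
Level in each cattle-yak animal as a percentage of the mean of the 3 yak, on a log axis, for the 10 acrosome genes in order of their share and, right of the grey line, for the summed FPKM of 3 marker lists. Dark circles are C1, squares C2, light triangles C3 and open triangles 0 fragments; the shares run from under 1% for SPACA3 to 31.5% for PICK1 in C1 and lie over 100% for GOPC.

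The share of the yak level that was left in cattle-yak differed among the acrosome genes when set beside these markers. The round spermatid markers kept 0.57% to 8.67% of their yak level in cattle-yak, with a median of 0.70%, and the elongating spermatid markers 0.22% to 1.76%, with a median of 0.48%. *SPACA4* at 0.68% stood among these markers and *SPACA3* at 0.15% under the lowest of them, but their counting intervals are too wide to place them more closely. *SPACA1*, *ACR* and *ACRBP* at 2.81%, 3.33% and 3.44% lay above both medians, and *DPY19L2* had 7.09%. *ZPBP* and *ZPBP2* lay above every gene of both lists. The spermatocyte markers kept 10.6% to 224%, and of these 12 genes 3 were called lower, *PIWIL1*, *HSPA2* and *TDRD9*, a share near the 20.8% of all genes tested. The number called lower was 6 with median-of-ratios scaling, 12 with centring on Sertoli markers and 2 with centring on the spermatocyte markers themselves, where *TDRD9* (−0.81) lost the call. The list had 1 higher gene, *SYCP3* with 1.10, which turned to −1.13 with centring on Sertoli markers and was not called with median-of-ratios scaling (0.49), without C3 (0.91) or without Y1 (0.998). When the libraries were centred on the mean of the spermatocyte markers, the log2 (foldchange) was −1.98 for *ZPBP*, −1.75 for *ZPBP2* and −5.56 for *SPACA4*. These values are relative to the mean of a mixed list. Its lowest gene, *PIWIL1* with 10.6%, kept less than *ZPBP* and *ZPBP2*, and its other genes kept more.

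Ratios between acrosome genes within a library, where nothing is added to the values, do not depend on the scaling between libraries, and 6 of them were compared with exact permutation tests (two-sided), which cannot go below p = 0.1 with 3 animals against 3. The ratio of *ACR* to *ZPBP* was 0.415, 0.315 and 0.118 in C1, C2 and C3, and 1.64, 1.45 and 1.65 in Y1, Y2 and Y3. Its log2 mean was lower by 2.66 in cattle-yak without overlap (exact p = 0.1, 0.2 adjusted over the 6 ratios), so in each cattle-yak animal the protease stood further under its yak level than the zona binding protein. The ratio of *DPY19L2* to *ZPBP* was 0.265 to 0.511 in the cattle-yak animals, all under the 0.996 to 1.08 of the yak (exact p = 0.1, adjusted 0.2). That of *GOPC* to *PICK1* was 4.83, 7.17 and 5.34 in C1, C2 and C3, and 1.53, 1.496 and 1.21 in Y1, Y2 and Y3 (exact p = 0.1, adjusted 0.2).

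The other 3 ratios overlapped between the groups. The ratio of *ACR* to *ACRBP* was 1.33, 1.31 and 0.524 in C1, C2 and C3, and 1.11 to 1.296 in yak (exact p = 1, adjusted 1). Its difference on the log2 scale was −0.32, with C3 standing apart, and turned to 0.12 without C3. The ratio of *ZPBP2* to *ZPBP* was 0.575, 0.798 and 1.07 in C1, C2 and C3, and 0.641 to 0.711 in yak (exact p = 0.5, adjusted 0.6). The log2 difference of 0.22 was 0.0048 without C3 and 0.45 without C1. For *SPACA1* to *SPACA3*, taken after adding 1 to each FPKM because of the value of 0, the log2 difference was 0.79 (exact p = 0.2, adjusted 0.3), and it was 3.11 after adding 0.1 (exact p = 0.1), 1.17 without C3 and 0.41 without C1.

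**Figure D4:**
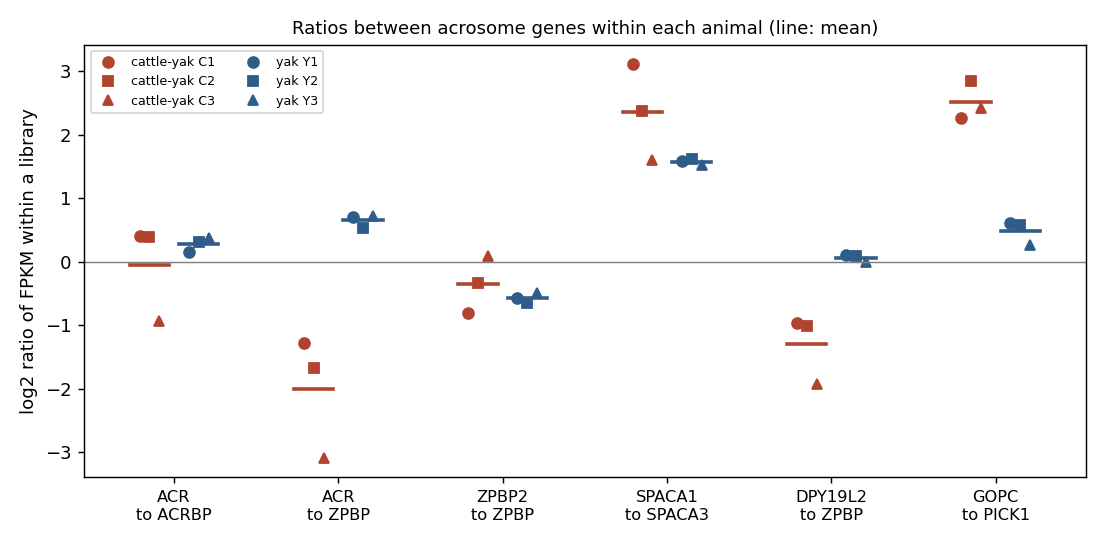
Log2 ratio of the FPKM values of pairs of acrosome genes within each library, with 1 added to both values for SPACA1 to SPACA3. Red points are cattle-yak, blue points yak and short lines the means; the groups are apart for ACR to ZPBP, DPY19L2 to ZPBP and GOPC to PICK1 and overlap for the other ratios.

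Of 28 other proteins of the acrosome and its underlying cytoskeleton, 22 were in the table and tested. All 22 were called lower in cattle-yak, beside 20.8% of all genes tested, with a median log2 (foldchange) of −5.44. This median was −7.20 with a pseudocount of 0.1 and −7.29 with voom on the fragments, whereas that of the 10 genes described here was −4.49 and −4.50. On log2 (FPKM + 1), the largest falls were those of *CAPZA3*, a testis capping protein of actin, with −7.11, of *CRISP2*, a cysteine-rich secretory protein, with −7.01, and of *ACTL7B*, an actin-like protein, with −7.00. *CRISP2* and *ACTL7B* stand on 2 genes each, of which the more abundant is given, and their values are uncertain. The smallest falls on this scale were those of *TMPRSS12*, a serine protease, with −2.32, of zonadhesin (*ZAN*) with −3.14 and of *CCDC62* with −3.77. The pseudocount enters this order, and by the share of the yak level *FAM170B* with 0.26% was lowest, against 0.52% for *CAPZA3*, while *ZAN*, with a yak mean of 9.43 FPKM, kept 1.92%. *FAM170B* was named after its value was seen. *CAPZA3* had 3.76, 0.89 and 1.05 FPKM in C1, C2 and C3 and a mean of 367 FPKM in yak. Only 1 of the 22 genes, *TMPRSS12* with 12.4%, kept 10% or more of its yak level, against *ZPBP*, *ZPBP2*, *PICK1* and *GOPC* of the 10 genes described here, and 12 of the 22 kept under 1%. C1 was the highest cattle-yak animal for 21 of the 22 genes, and for 66.1% of all genes called lower.

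The general Golgi and vesicle factors known from acrosome formation, with 17 of 18 in the table, had calls in both directions on the values as deposited. Of these 4 were called lower and 3 higher, with a median log2 (foldchange) of 0.48, beside 20.8% lower and 33.4% higher over all genes tested. The split depended on the scaling, with 6 lower and none higher for median-of-ratios size factors (median −0.12), 15 lower and none higher after centring on Sertoli markers, and 4 lower and 9 higher after centring on spermatocyte markers. The lower genes were *HOOK1*, a microtubule linker of the manchette, with −2.26, *AGFG1*, needed for vesicle fusion in the acrosome, with −2.13, the glucosylceramidase *GBA2* with −1.89 and the autophagy gene *ATG7* with −1.71, which was named after its value was seen. The higher genes were the Golgi GTPase *RAB6A* with 1.45, the Golgi tether subunit *VPS54* with 1.29 and the autophagy gene *ATG5* with 1.002, and all 3 stood at −0.77, −0.94 and −1.23 after the shift to Sertoli markers. *ATG5* lost the call without C2 (0.97), C3 (0.92), Y2 (0.996) or Y3 (0.95), and none of the 3 was called with median-of-ratios scaling, at 0.85, 0.72 and 0.45. *GOPC* with 0.20 lay inside the range of the 10 genes of this list that were not called.

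**Figure D5:**
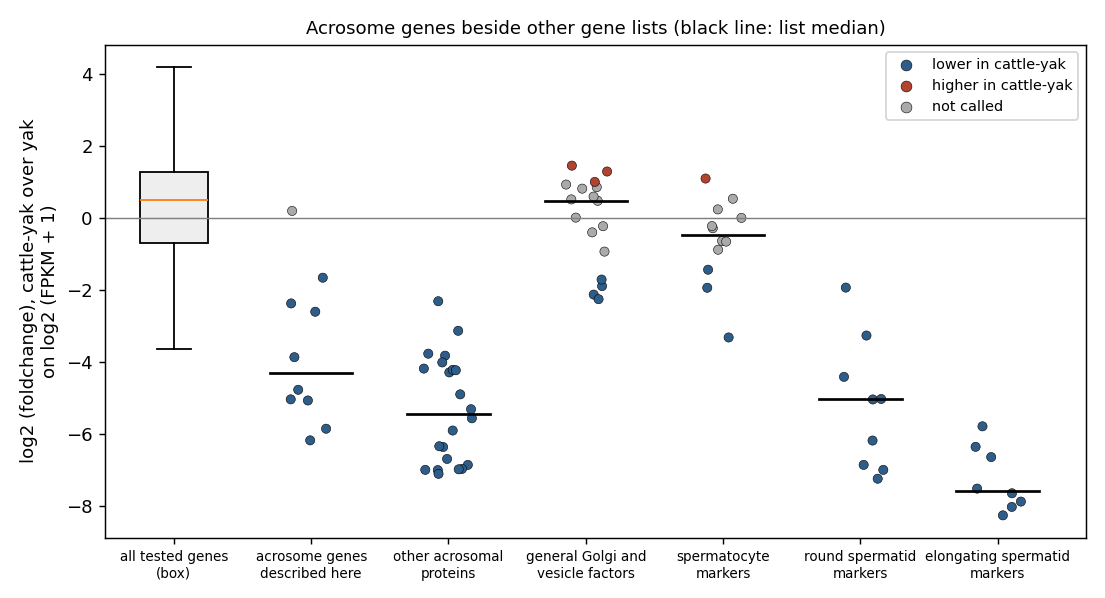
Log2 (foldchange) of cattle-yak over yak on log2 (FPKM + 1) for the acrosome genes and for 5 other lists, each point 1 gene, beside a box (median, quartiles and whiskers to 1.5 times their distance) of all 15042 genes tested. Blue genes were called lower, red higher and grey not called; all 22 other acrosomal proteins are lower, whereas the Golgi and vesicle factors spread around a median of 0.48.

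The annotation in the deposited table placed the genes on several terms. Acrosomal vesicle was given to *ACR*, *ACRBP*, *SPACA4* and *ZPBP2*, and acrosomal membrane to *ACRBP*, *SPACA1* and *ZPBP*. Over all genes tested, 20.8% were called lower and 33.4% higher. Of the 61 other tested genes on acrosomal vesicle, 35 were called lower and 6 higher, with a median log2 (foldchange) of −1.88. Of the 14 other tested genes on acrosomal membrane, 9 were called lower and 3 higher. *GOPC* and *PICK1* carried the term Golgi apparatus, and of the 627 other tested genes on it 102 were called lower, which is 16.3%, and 233 higher. These terms were chosen after the values were seen and serve as a description.

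Patterns like those of *ACR* and *ZPBP* over the 6 libraries were found by the Euclidean distance of log2 (FPKM + 1). Nearest to *ACR* were *TMEM225* at a distance of 0.22, *GK* at 0.31 and *MENT* at 0.42. *TMEM225* had 15.4, 7.53 and 2.46 FPKM in C1, C2 and C3 and 222 to 255 FPKM in yak, close to *ACR* in every animal, and *GK* stands on 2 genes and is uncertain. Nearest to *ZPBP* were *B4GALT7* at 0.37, *UBXN6* at 0.53 and *ACOT7* at 0.54. *B4GALT7* had 28.5, 23.7 and 19.1 FPKM in C1, C2 and C3 and 142 to 173 FPKM in yak.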

How the data were processed

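Testis RNA of 3 cattle-yak and 3 yak was sequenced by the authors as 150 bp paired ends from stranded mRNA libraries. The deposited FPKM were calculated by the authors with Cufflinks after Trimmomatic trimming and HISAT2 alignment against LU_Bosgru_v3.0, the yak genome (per the methods and the processing notes), and tool versions are not given in the sources used here. Columns were assigned to animals by their labels, and C1 to C3 and Y1 to Y3 number the animals in the order of the labels.

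Whole fragments were recovered from the ratios of FPKM between libraries for 17973 genes (tolerance 0.03 fragments), and the lengths found lay within 0.02 bases of a whole number for 99.4% of 13671 genes. On simulated data 97.4% of genes had every count returned. The empirical Bayes fit of limma 3.58.1 with a mean trend (R 4.3.3, pseudocount 1, 15042 genes at a mean of 0.5 FPKM or more) called 186 of 200 genes changed 4-fold and 3 unchanged genes in simulated data. The simulation gave both groups the same spread and changed as many genes up as down. In the real data far more genes were called and most acrosome genes varied more in cattle-yak, so these rates may not carry over. Fold changes on log2 (FPKM + 1) understate changes of low genes. Other steps used Python 3.11.15, numpy 2.4.6, pandas 2.3.3, scipy 1.17.1 and matplotlib 3.10.9.

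The members and all lists were chosen with earlier results of these data known. From the other acrosomal proteins and from the Golgi and vesicle factors, the 3 genes with the largest and the 3 with the smallest log2 (foldchange) were named. For *ACR* and *ZPBP* the 3 nearest genes were named. Genes of the marker lists are named only where a result turns on them. Of a symbol on several genes the most abundant was used. No sequences or positions were used here, and columns of authors' tests were not used.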

Additional observations from a re-analysis of the deposited data

How the results depend on the processing

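The 9 lower acrosome genes were called lower under 15 alternatives: a pseudocount of 0.1, no filter or a mean of at least 5 FPKM, median-of-ratios, TPM, Sertoli-marker and spermatocyte-marker scaling, limma without a trend, voom on the recovered fragments, and each animal left out in turn. Of these, Sertoli-marker centring called 73.7% of all genes lower, so its calls do not set the 9 genes apart. Leaving out an animal gave −5.59 to −4.40 for *ACR* and −4.27 to −3.37 for *DPY19L2*. *GOPC* turned to −0.40 with median-of-ratios scaling and −2.03 with Sertoli-marker centring. The log2 ratio of *ACR* to *ACRBP* turned to 0.12 without C3 (range −0.55 to 0.12 over the animals left out). Over all genes, 3136 were called lower and 5023 higher, against 4173 and 2655 with median-of-ratios scaling, 11088 and 30 with Sertoli-marker centring, 2140 and 8092 with spermatocyte-marker centring, and 4399 and 7916 with no fold-change threshold. The Golgi and vesicle factors called lower numbered 15 with Sertoli-marker centring. Median-of-ratios scaling moved the median of all genes from 0.51 to 0.01, Sertoli-marker centring to −1.72 and spermatocyte-marker centring to 1.14. Centring moves every gene alike by construction. Median-of-ratios scaling levels the median gene of the libraries, so its shift of the median was also set by the method. Why the median lay at 0.51 without it was not tested. For *SPACA3* and *SPACA4*, with 4 and 11 fragments in cattle-yak, depth limits the size of the fall, which was −8.47 and −7.79 with a pseudocount of 0.1 and −9.25 and −7.72 with voom. No paired analysis was possible because the labels give the animals of the groups no shared numbers.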
